A study of Homo sapiens with 9 samples.

Results

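RNA-Seq of PC3 xenografts was examined for 10 genes of the IL-1 and IL-6 cytokine families, chosen by gene name from the deposited count tables. They are the IL-1 family ligands IL1A, IL1B, IL33 and IL18, the receptor antagonist IL1RN, the receptor IL1R1, the IL-6 family ligands IL6, IL11 and LIF, and IL24, which is usually placed in the IL-10 family. The tables hold 16098 and 16114 genes, 16008 of them in both, and all 10 genes were listed in both. PC3 is an established human prostate cancer line, androgen independent and without functional p53, and here it was grown under the skin of male NSG mice, hosts that lack lymphocytes. Tumors came from mice given vehicle (PBS), P-DXd (patritumab deruxtecan, directed at HER3) or T-DXd (trastuzumab deruxtecan, directed at HER2), with 3 libraries in each group. Both conjugates carry deruxtecan, which inhibits topoisomerase I. The series record gives mice 11 weeks old at injection of the cells and 5 weekly retro-orbital doses of 5 mg/kg. For the experiment that compared both conjugates at this dose, the study's methods give another mouse age, tumor size at the start and number of cycles. Their other experiment, of T-DXd against vehicle at another dose, has the mouse age and number of cycles of the record. The sample title and the treatment field name opposite conjugates for each of the 6 treated libraries, so each group is named by its title (P-DXd-titled or T-DXd-titled), and the conjugate behind each is unresolved. Nothing in the records says which animals were littermates or which tumors were processed together.

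IL-1α and IL-1β both bind IL1R1, which recruits the accessory chain IL1RAP and signals through MyD88 and IRAK kinases to NF-κB and AP-1. IL1RN blocks the same receptor, and IL6, IL11 and LIF signal through receptors that share gp130 (IL6ST) to JAK kinases and STAT3. In many epithelial tumors IL-1 induces IL6, IL11 and LIF, and PC3 is known as a line that secretes IL-6.

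All 10 genes passed the filter on low counts and were tested in each comparison. A gene was called changed at a Benjamini-Hochberg adjusted p at or below 0.05 in edgeR's quasi-likelihood test over all genes, with a fold change of at least 1.5. In P-DXd-titled tumors 5 of the 10 were called lower than PBS (IL1A, IL1B, IL11, LIF and IL24) and 0 higher, against 13.8% of all genes tested called lower and 25.0% called in either direction. In T-DXd-titled tumors the same 5 were lower and 0 higher, against 15.5% called lower and 28.6% called in either direction. With all 6 treated libraries set against PBS, which does not depend on the titles, the 5 were again lower and 0 higher, against 17.1% and 32.2%. DESeq2 also called 5 lower and 0 higher in each of these comparisons. At an unadjusted p under 0.05, the same 5 were lower and 1, IL18, was higher in each. The share of all genes under this p was not counted, but it is a loose threshold here. By p, IL24 ranked only 4297 of 14945 genes in P-DXd-titled, 5505 of 14915 in T-DXd-titled and 4619 of 15070 in all treated tumors. IL24 was itself under 0.05, so at least as many genes as its rank lay under this p in each comparison. The count of the 10 genes at the unadjusted p is therefore not read as a result. These comparisons share the PBS libraries. Between the conjugates 0 of 10 were called by edgeR and 0 by DESeq2, against 0.0273% of all genes, although 3 had an unadjusted p under 0.05 in edgeR. Of these 3, IL1R1 had the largest p (0.0457) and ranked 491 of 14653 genes, so at least 491 genes lay under this p.

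**Figure D1:**
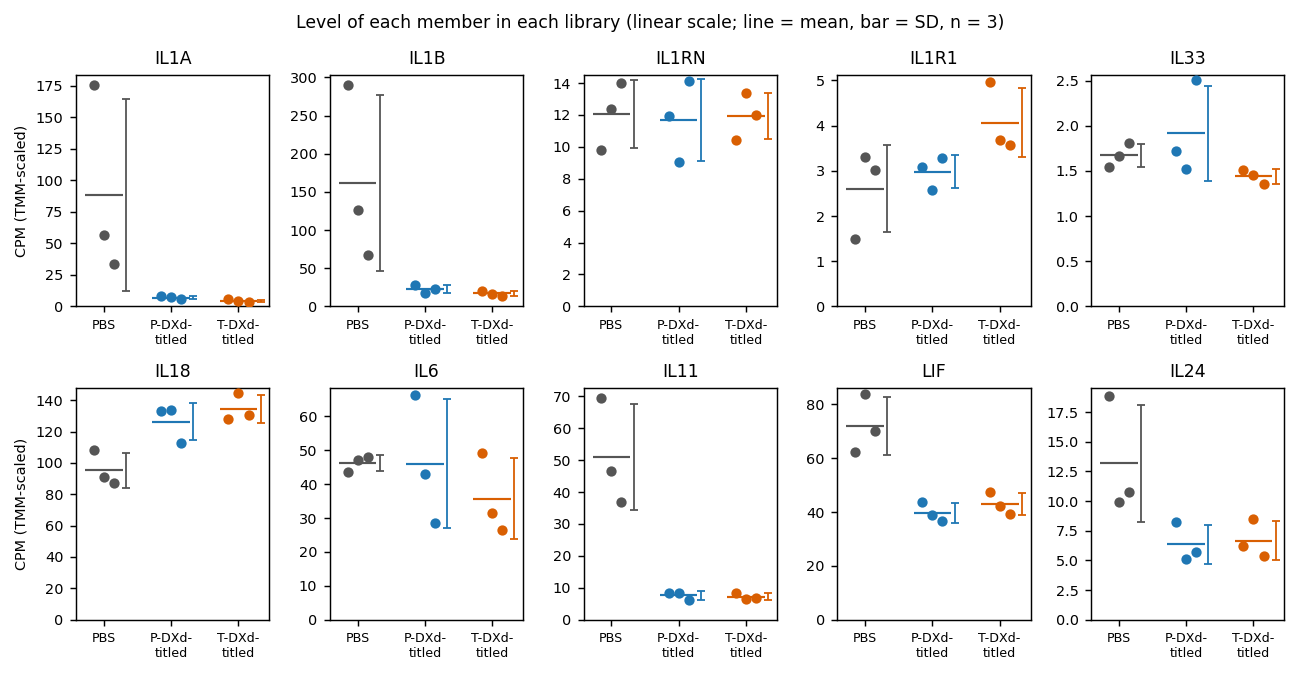
Level in CPM (counts scaled to the library size, y axis, linear from 0) of each of the 10 genes in the 3 libraries of each group (x axis). Points are libraries, horizontal lines group means and bars SD (n = 3); IL1A, IL1B, IL11, LIF and IL24 lie lower in all 6 treated libraries than in any PBS library.

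Promoter sequences are shown for the 3 genes with the largest falls, IL1A, IL1B and IL11, and for IL6, which was not called changed. Each is the 250 bases before an annotated RefSeq start on GRCh38.p14, read 5′ to 3′ on the gene's own strand. Capitals mark letters found by a motif search on both strands for AP-1 (TGANTCA), C/EBP (TTNNGCAA), CRE (TGACGTCA), STAT (TTCNNNGAA) and kappa-B, and on the gene's strand for TATAAA. The windows are chr2:112784494-112784743 on the minus strand for IL1A, chr2:112836780-112837029 on the minus strand for IL1B, chr19:55370464-55370713 on the minus strand for IL11 and chr7:22726950-22727199 on the plus strand for IL6.
IL1A: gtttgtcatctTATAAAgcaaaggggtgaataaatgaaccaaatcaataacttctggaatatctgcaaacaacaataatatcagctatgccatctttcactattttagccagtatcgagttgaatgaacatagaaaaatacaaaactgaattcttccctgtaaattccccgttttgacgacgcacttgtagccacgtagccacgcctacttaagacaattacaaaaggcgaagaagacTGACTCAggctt
IL1B: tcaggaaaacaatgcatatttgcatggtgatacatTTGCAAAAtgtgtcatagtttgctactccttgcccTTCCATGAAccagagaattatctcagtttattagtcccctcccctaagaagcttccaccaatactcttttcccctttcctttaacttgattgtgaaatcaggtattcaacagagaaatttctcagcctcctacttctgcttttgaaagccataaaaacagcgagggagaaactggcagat
IL11: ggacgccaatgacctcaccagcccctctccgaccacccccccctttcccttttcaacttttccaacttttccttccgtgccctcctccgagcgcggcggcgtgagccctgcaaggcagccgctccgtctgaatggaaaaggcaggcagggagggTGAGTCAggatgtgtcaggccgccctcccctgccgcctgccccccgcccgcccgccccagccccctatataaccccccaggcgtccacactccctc
IL6: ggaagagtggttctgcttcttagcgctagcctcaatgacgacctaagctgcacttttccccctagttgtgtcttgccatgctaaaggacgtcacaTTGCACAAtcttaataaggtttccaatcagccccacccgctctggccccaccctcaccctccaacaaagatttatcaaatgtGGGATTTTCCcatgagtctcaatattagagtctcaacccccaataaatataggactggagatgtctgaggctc

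IL1A holds a TATAAA at -239 and an AP-1 match at -12, both counted from -1 as the last base before this start to the motif's leading base. A window on its other listed start, which overlaps the one shown, holds the same AP-1 match, there at -105, and another at -55 from that start. IL11 has an AP-1 match at -96. IL1B has a C/EBP match at -215 and a STAT match at -180, and IL6 a C/EBP match at -155 and a kappa-B match at -73. Of 8 members with a window, 3 hold an AP-1 match in at least 1 window (IL1A, IL1RN and IL11), 2 a C/EBP match, 2 a STAT match, 2 a TATAAA and 1 a kappa-B match, and IL24 and IL33 hold none of the motifs. Of 35116 windows of the same length, 6.57% hold an AP-1 match, 9.05% a C/EBP, 1.65% a CRE, 6.57% a STAT, 6.80% a TATAAA and 9.96% a kappa-B match. IL1RN, IL1A, IL1R1 and IL33 have more than 1 window each, and so more chances of a match. A match describes letters in the window and not binding.

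IL1A, which encodes the IL-1α precursor, showed the largest fall of the 10. Its level was 175, 56.8 and 33.3 CPM in PBS replicates 1 to 3, against 8.10, 7.34 and 5.60 CPM in the P-DXd-titled and 5.50, 4.28 and 3.35 CPM in the T-DXd-titled libraries. The lowest PBS library lay above every treated library. IL1A was 12.5-fold lower with P-DXd-titled treatment (log2 fold change -3.64, SE 0.61, adjusted p = 0.00630) and 20.2-fold lower with T-DXd-titled treatment (-4.33, SE 0.65, adjusted p = 0.00325). The 6 treated libraries together stood 15.5-fold below PBS (-3.96, 95% interval -4.93 to -2.99, adjusted p = 4.63e-05).

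IL1B encodes the IL-1β precursor, which caspase-1 cleaves before release. PBS replicates 1 to 3 had 290.0, 127 and 67.1 CPM, the P-DXd-titled libraries 27.6, 17.7 and 22.5 CPM and the T-DXd-titled libraries 20.2, 16.8 and 14.0 CPM. Again no treated library reached the lowest PBS library. The fall was 7.05-fold in P-DXd-titled tumors (log2 -2.82, SE 0.51, adjusted p = 0.00786) and 9.49-fold in T-DXd-titled tumors (log2 -3.25, SE 0.52, adjusted p = 0.00398).

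The size of both falls rested in part on PBS replicate 1, which had the highest IL1A and IL1B of all libraries. Over all genes this library lay 0.502 and 0.566 from PBS replicates 2 and 3 (root mean square difference in log2 CPM), while these lay 0.196 from each other. Without it, the log2 fold change of IL1A was -2.67 in P-DXd-titled, -3.36 in T-DXd-titled and -2.98 in all treated tumors. That of IL1B was -2.09, -2.51 and -2.28. Both genes were still called lower in each comparison (largest adjusted p 0.000459). PBS replicate 1 also had the highest sum of keratinocyte markers, at 1001 CPM against 196 and 199.8 CPM in PBS replicates 2 and 3, and the part of this in the values of IL1A and IL1B was not tested.

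IL1RN, the secreted or intracellular antagonist of IL1R1, was at 9.78, 12.4 and 14.0 CPM in PBS, 11.9, 9.03 and 14.1 CPM in P-DXd-titled and 10.4, 13.3 and 11.97 CPM in T-DXd-titled libraries. The groups overlapped. Its log2 fold change was -0.03 with P-DXd-titled treatment (95% interval -0.53 to 0.47) and -0.01 with T-DXd-titled treatment (-0.42 to 0.39). Since IL1A and IL1B fell, the ratio of IL1RN to the sum of IL1A and IL1B, each in CPM per kilobase of exon, was 0.0143, 0.0471 and 0.0966 in PBS libraries. It was 0.243, 0.254 and 0.369 in P-DXd-titled and 0.297, 0.465 and 0.509 in T-DXd-titled libraries, so every treated library lay above every PBS library. This ratio follows from the values of the 3 genes and was not tested.

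**Figure D2:**
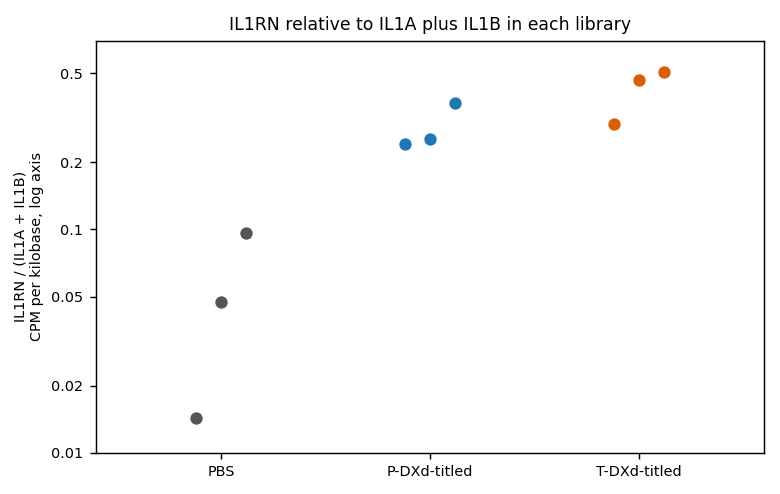
Ratio of IL1RN to IL1A plus IL1B (each in CPM per kilobase of exon, y axis, log scale) in each library of the 3 groups (x axis), 1 point per library. PBS libraries lie between 0.0143 and 0.0966 and treated libraries between 0.243 and 0.509.

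IL1R1 was low, at 1.499, 3.32 and 3.01 CPM in PBS, 3.09, 2.57 and 3.29 CPM in P-DXd-titled and 4.96, 3.67 and 3.58 CPM in T-DXd-titled libraries. Every T-DXd-titled library lay above every PBS library, but the difference did not pass the test (log2 fold change 0.64, 95% interval -0.13 to 1.41, adjusted p = 0.152). P-DXd-titled libraries overlapped with PBS (0.20, adjusted p = 0.656). IL33, a nuclear alarmin that binds IL1RL1, was at 1.54 to 1.81 CPM in PBS, 1.52 to 2.51 CPM in P-DXd-titled and 1.36 to 1.52 CPM in T-DXd-titled libraries. T-DXd-titled libraries lay just below PBS without passing the test (log2 -0.21, adjusted p = 0.441). In counts, IL33 had 83 to 213 reads per library and IL1R1 132 to 425, the fewest of the 10 genes.

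IL18, the other ligand of the family that caspase-1 matures, went in the opposite direction from IL1A and IL1B. It stood at 108, 91.2 and 87.0 CPM in PBS, 133, 134 and 112 CPM in P-DXd-titled and 128, 145 and 131 CPM in T-DXd-titled libraries. All 6 treated libraries were above all 3 PBS libraries. The log2 fold change was 0.42 (SE 0.12, adjusted p = 0.0360) and 0.50 (SE 0.11, adjusted p = 0.0110), which passed the adjusted p and not the fold minimum, so IL18 was not called.

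IL11, a gp130 ligand, fell with little spread among treated libraries. PBS replicates 1 to 3 had 69.5, 46.5 and 36.9 CPM, the P-DXd-titled libraries 8.48, 8.48 and 6.10 CPM and the T-DXd-titled libraries 8.47, 6.58 and 6.66 CPM. No treated library came near the lowest PBS library. IL11 was 6.56-fold lower in P-DXd-titled tumors (log2 -2.71, SE 0.26, adjusted p = 0.00151) and 7.03-fold lower in T-DXd-titled tumors (log2 -2.81, SE 0.25, adjusted p = 0.000675). Without PBS replicate 1 the values were -2.43 and -2.53.

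LIF, a gp130 ligand that signals through LIFR, fell by less. Its level was 62.3, 83.8 and 69.9 CPM in PBS, 43.9, 38.8 and 36.6 CPM in P-DXd-titled and 47.5, 42.4 and 39.1 CPM in T-DXd-titled libraries. Groups did not overlap, and PBS replicate 1 was here the lowest of the PBS libraries. LIF was 1.79-fold lower in P-DXd-titled (log2 -0.84, SE 0.14, adjusted p = 0.00588) and 1.67-fold lower in T-DXd-titled tumors (log2 -0.74, SE 0.13, adjusted p = 0.00581).

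IL6 was not called in any comparison. PBS libraries were close together at 43.7, 47.1 and 48.1 CPM, P-DXd-titled libraries were at 66.3, 43.1 and 28.6 CPM and T-DXd-titled libraries at 49.3, 31.4 and 26.5 CPM. Replicate 1 of each treated group lay above all PBS libraries and the other treated libraries lay below them. The log2 fold change was 0.01 in P-DXd-titled (95% interval -0.64 to 0.65) and -0.37 in T-DXd-titled tumors (-0.89 to 0.15). Without T-DXd-titled replicate 1 the latter became -0.67 and passed (adjusted p = 0.0193). IL6 thus spread more among treated libraries (SD 19.0 and 11.98 CPM) than among PBS libraries (SD 2.32 CPM, n = 3 each).

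IL24, which signals through IL20RA or IL22RA1 paired with IL20RB, was at 18.8, 9.95 and 10.7 CPM in PBS, 8.21, 5.12 and 5.73 CPM in P-DXd-titled and 6.17, 8.46 and 5.33 CPM in T-DXd-titled libraries. The lowest PBS library lay above the highest treated library by a small margin. The log2 fold change was -1.03 (SE 0.30, adjusted p = 0.0351) and -0.98 (SE 0.30, adjusted p = 0.0345). The call was lost in P-DXd-titled tumors without replicate 2 (-0.90, adjusted p = 0.113) or 3 (-0.96, adjusted p = 0.122). In T-DXd-titled tumors it was lost without replicate 1 (-0.92, adjusted p = 0.114) or 3 (-0.84, adjusted p = 0.122). Exons of IL24 overlap 823 bases of FCMR on the opposite strand in GENCODE v44, and since the methods do not say whether strand was used, reads from these genes cannot be told apart. Shorter overlaps with genes on the opposite strand, the longest of 428 exonic bases for IL6, 86 for LIF and 11 for IL1R1, carry the same limit.

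**Figure D3:**
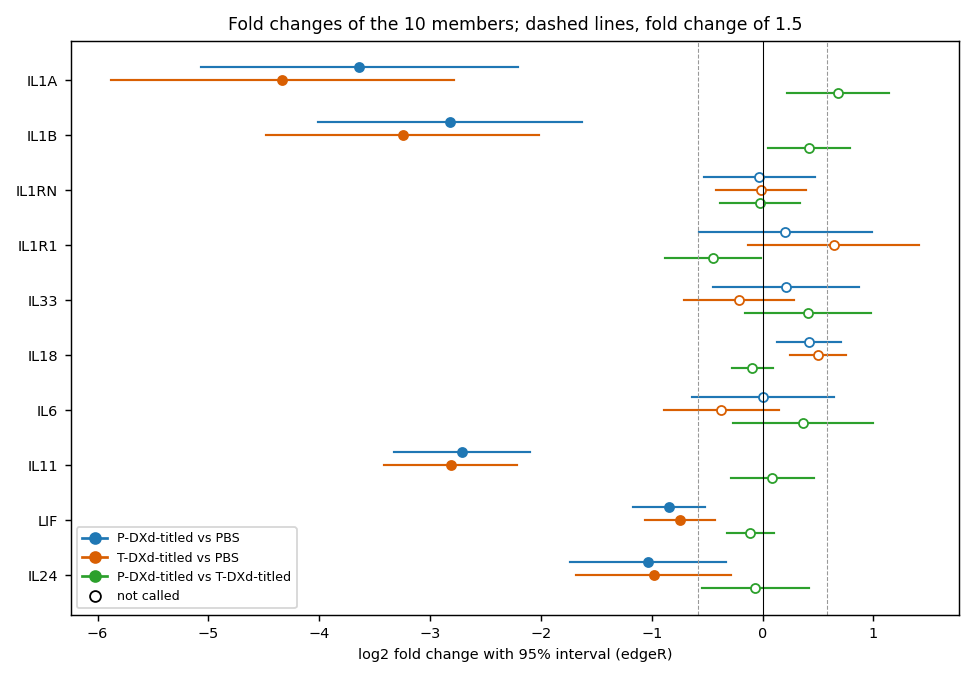
Log2 fold change (x axis) of each of the 10 genes (y axis) for each conjugate title against PBS and for P-DXd-titled relative to T-DXd-titled tumors, with 95% intervals from edgeR. Filled points were called, open points were not, and dashed lines mark a fold change of 1.5; IL1A, IL1B and IL11 stand lowest, from -4.33 to -2.71 against PBS.

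Groups did not overlap for 6 of the 10 genes between P-DXd-titled and PBS libraries (55.2% of all genes), for 8 between T-DXd-titled and PBS libraries (61.3%) and for 6 between all treated and PBS libraries (50.5%). With 10 genes, each of these counts is near the share over all genes or little above it. The median log2 fold change of the 10 genes was -0.44, -0.56 and -0.49, against -0.01, -0.02 and -0.01 over all genes tested.

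**Figure D4:**
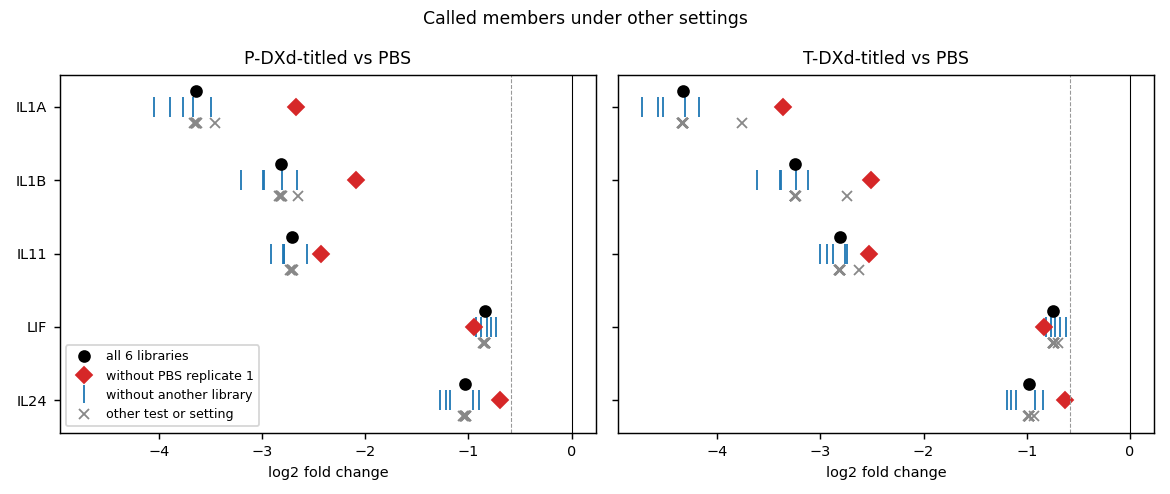
Log2 fold change against PBS (x axis) of the 5 genes called lower (y axis), for each conjugate title. Black circles use all 6 libraries, red diamonds leave out PBS replicate 1, blue ticks leave out another library, grey crosses use another test or setting and the dashed line marks a fold change of 1.5 down; without PBS replicate 1, IL1A moved from -3.64 to -2.67 and from -4.33 to -3.36.

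Compared directly, the conjugate titles gave no call in these genes. IL1A was higher in P-DXd-titled than in T-DXd-titled libraries without overlap (log2 0.68, 95% interval 0.22 to 1.14, unadjusted p = 0.00796, adjusted p = 1.00). IL33 was also higher without overlap (0.41, 95% interval -0.16 to 0.98) and IL1R1 lower without overlap (-0.45, 95% interval -0.88 to -0.01). These 3 of 10 genes compare with 8.08% of all genes whose groups did not overlap. For IL1B the difference was 0.42 (95% interval 0.05 to 0.79), and for IL6 0.37 (-0.26 to 1.00). The interval was -0.28 to 0.46 for IL11, -0.32 to 0.10 for LIF, -0.28 to 0.10 for IL18, -0.38 to 0.33 for IL1RN and -0.55 to 0.42 for IL24. A difference that missed the threshold does not show that the conjugates acted alike.

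Per kilobase of exon, the order of levels changed between PBS and treated tumors. In PBS libraries the means were 53.6 CPM per kilobase for IL1B, 43.9 for IL1A and 36.6 for IL18, whose ranges overlapped, then 19.0 for IL11 and 18.6 for LIF, which overlapped too. Below them were IL6 at 10.7, IL24 at 6.65, IL1RN at 3.23, IL33 at 0.514 and IL1R1 at 0.366 CPM per kilobase, with no overlap between neighbors. IL18 led in both treated groups, at 48.5 and 51.7 CPM per kilobase, above every other gene without overlap.

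In P-DXd-titled libraries IL6 (10.6 CPM per kilobase) and LIF (10.3) followed and overlapped, then IL1B at 7.51. IL1A (3.48), IL24 (3.21), IL1RN (3.13) and IL11 (2.87) formed a run in which neighbors overlapped. In T-DXd-titled libraries LIF (11.1), IL6 (8.26) and IL1B (5.64) followed IL18, neighbors overlapping, and then IL24 (3.36), IL1RN (3.19), IL11 (2.702) and IL1A (2.17), where neighbors again overlapped. The PBS order depended on PBS replicate 1. Without it, a setting added after the data were seen, IL18 came highest at 34.2 CPM per kilobase, then IL1B at 32.2 and IL1A at 22.3, neighbors overlapping. IL1A came below 7 of the other genes in T-DXd-titled tumors.

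IL1A and IL1B also changed relative to each other. The ratio of IL1B to IL1A per kilobase was 1.11, 1.497 and 1.35 in PBS, 2.28, 1.62 and 2.6995 in P-DXd-titled and 2.46, 2.63 and 2.79 in T-DXd-titled libraries, all treated values being above all PBS values. The ratio of LIF to IL11 per kilobase was 0.621 to 1.31 in PBS and 3.17 to 4.46 in treated libraries. These ratios describe the libraries and were not tested.

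IL1A, IL1B and IL1RN lie in a cluster on chromosome 2. As listed in the tables, on a build they do not name, IL1A spans 113531492 to 113542167, IL1B 113587328 to 113594480 and IL1RN 113864791 to 113891593. The gap is 45160 bases between IL1A and IL1B and 270310 bases between IL1B and IL1RN. Of the genes listed with the P-DXd-titled counts, IL37, IL36G, IL36B and IL36RN lie between the last pair. Genes that were not listed there are left out. IL36RN, the antagonist of the IL-36 receptor, was at 2.66 ± 0.676 CPM in PBS (n = 3) and 4.47 ± 0.698 CPM in treated libraries (n = 6). It was called higher in all treated libraries against PBS (log2 0.75, adjusted p = 0.00953). Without PBS replicate 1 this call was lost (0.56, adjusted p = 0.0177, below the fold minimum). IL36RN was not called in P-DXd-titled (0.75, adjusted p = 0.0563) or T-DXd-titled tumors alone (0.76, adjusted p = 0.0599). IL37, IL36G and IL36B were not called. Among these listed genes, falls were therefore called at IL1A and IL1B, with no call at IL1RN. The rise at IL36RN was called only with all treated libraries together.

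The genes with the most similar profile over the 9 libraries were found by the root mean square difference of centred log2 CPM among 12671 genes with a mean of at least 1 CPM. For IL1A they were MYH15 (0.261), CNTN1 (0.415) and LRRC8C (0.431), and for IL1B the tissue factor gene F3 (0.190), CNTN1 (0.250) and CENPK (0.309). IL11 lay closer to its neighbors ESPL1 (0.126), POLQ (0.137) and DNA2 (0.138), genes of chromosome separation, DNA repair and replication. LIF was nearest to NBPF15 (0.0762), REV1 (0.0768) and MED13L (0.0874), and IL24 to UBE3D (0.125), ZMYM1 (0.160) and SFR1 (0.163). Among the 10 genes, IL11 and IL1B differed by 0.381, IL1A and IL1B by 0.469 and IL11 and LIF by 0.966.

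Counts over lists of pathway genes are given for all 6 treated against PBS libraries, where 32.2% of all genes were called. Of 21 receptor chains and decoys tested, 5 were called higher and 2 lower (median log2 0.24). IL1RAP, the chain IL1R1 and IL1RL1 need for signaling, fell from 56.1 ± 10.2 to 36.6 ± 3.90 CPM (log2 -0.62, adjusted p = 0.00161), and IL31RA fell (-0.71). SIGIRR, an inhibitory receptor of the family, rose from 21.9 ± 5.22 to 48.9 ± 5.65 CPM (log2 1.16, adjusted p = 0.000141), and IL10RB rose (1.38).

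IL18R1 (log2 0.86), IL1RL1 (0.67) and IL11RA (0.75) were also called higher, although IL11RA dropped just under the fold minimum without PBS replicate 1 (0.58). IL18RAP, the other chain of the IL-18 receptor, was at 0.187 ± 0.0439 CPM in PBS and 0.166 ± 0.0562 CPM in treated libraries (-0.16, adjusted p = 0.737). The 7 calls of 21 are near the share over all genes. The shared chain IL6ST was at 111 ± 19.5 CPM in PBS and 132 ± 9.29 CPM in treated libraries (0.25, adjusted p = 0.0718). LIFR (0.41, adjusted p = 0.0138) and IL20RA (0.42, adjusted p = 0.0431) passed the adjusted p and not the fold minimum. IL6R (-0.42), OSMR (-0.18), the decoy IL1R2 (-0.77, adjusted p = 0.0595), IL20RB (0.24) and IL22RA1 (-0.18) were not called.

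Of 10 other ligands tested, 3 were called higher, IL36RN, IL20 (log2 1.16) and CTF1 (0.86), and 1 lower, CNTF (-0.89). IL20 and CNTF were near 1 CPM or below in all groups. Without PBS replicate 1, CNTF (-0.58, adjusted p = 0.212) and IL36RN were not called and 2 calls, IL20 and CTF1, were left. In that setting 27.6% of all genes were called. Of 17 genes of processing and release, 2 were called higher and 2 lower. NINJ1, needed for membrane rupture in lytic death, rose from 19.3 ± 8.49 to 58.2 ± 3.94 CPM (log2 1.59) and CASP4 rose (0.63), while NLRP1, an inflammasome sensor, fell from 14.4 ± 3.03 to 5.04 ± 0.414 CPM (-1.51) and GSDMB fell (-0.76). CASP1, which matures IL-1β and IL-18, was at 19.0 ± 12.4 CPM in PBS and 18.3 ± 2.71 CPM in treated libraries (-0.06, adjusted p = 0.880) and was called higher without PBS replicate 1 (0.63, adjusted p = 0.00268).

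Of 28 signaling genes, 5 were called higher and 1 lower, PTPN11 (log2 -0.67). STAT5A (2.04) and STAT5B (1.98) had the largest rises, but these neighboring paralogs are nearly identical over much of their length and their levels were 0.327 ± 0.0840 and 0.940 ± 0.153 CPM in PBS, so their split is uncertain. STAT3, which carries the signal of gp130 and is named here after its values were seen, rose from 7.34 ± 3.14 to 15.7 ± 2.82 CPM (1.097, adjusted p = 0.00306). All 3 STAT genes were highest in P-DXd-titled replicate 2, at 3.175 CPM for STAT5A, 8.24 CPM for STAT5B and 20.4 CPM for STAT3, which was also the library with the highest sum of skeletal muscle markers (4776 CPM). Without it they were still called higher (log2 1.59 for STAT5A, 1.59 for STAT5B and 1.01 for STAT3). Muscle and macrophage markers also rose with treatment, and their part in these rises was not tested.

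Of 28 feedback and RNA decay genes, 5 were called higher and 8 lower. TRAF1 rose from 15.3 ± 7.12 to 83.8 ± 12.1 CPM (2.45) and BIRC3 from 67.1 ± 23.6 to 161 ± 17.0 CPM (1.26), while TNFAIP3, which encodes the NF-κB inhibitor A20, fell from 111 ± 47.7 to 43.99 ± 2.88 CPM (-1.34) and CISH fell (-1.41). All of these are targets or regulators of NF-κB or STAT signaling, and they did not share a direction.

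Of 15 AP-1 and C/EBP genes, 7 were called higher and 2 lower, with a median log2 fold change of 0.46. FOSL1, an AP-1 subunit, fell from 169 ± 54.3 to 56.7 ± 6.36 CPM (-1.58, adjusted p = 2.74e-05) and FOSB fell (-0.66). CEBPA rose (1.87) and BATF rose (1.98), the latter from 0.10 ± 0.0370 to 0.395 ± 0.0891 CPM. Without PBS replicate 1, 5 of this list were called higher and 1, FOSL1, lower, against 27.6% of all genes called in either direction. FOSB was not called in that setting (-0.52, adjusted p = 0.0835).

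**Figure D5:**
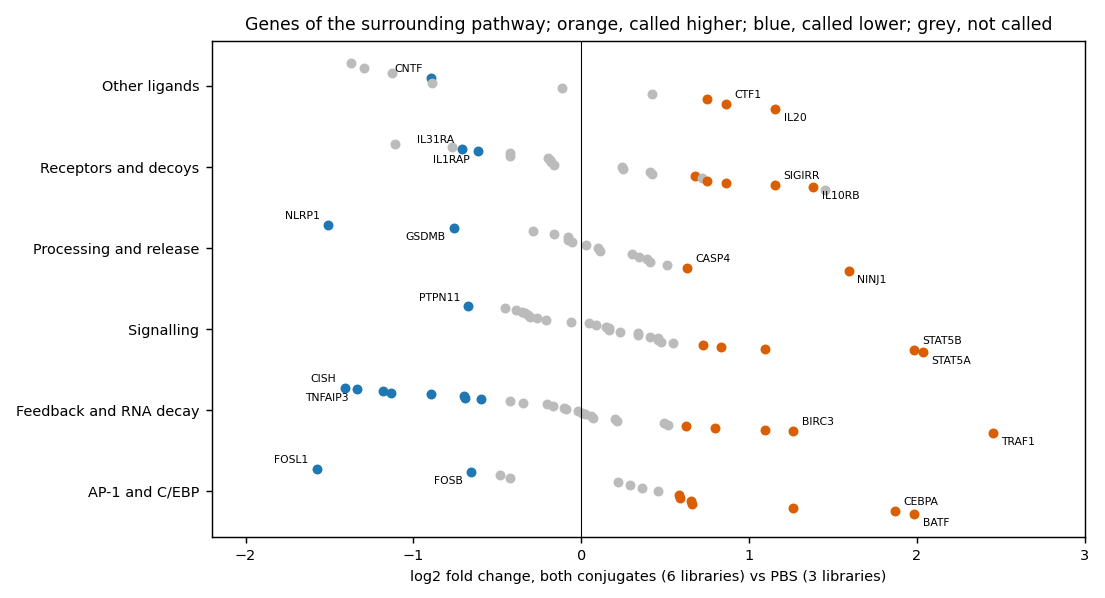
Log2 fold change of all treated (6 libraries) against PBS (3 libraries) on the x axis, for each tested gene of 6 lists on the y axis; within a list, points are spread vertically by rank only. Orange points were called higher, blue points lower and grey points were not called, and up to 4 called genes per list carry their symbol, from NLRP1 and FOSL1 on the left to TRAF1 on the right.

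These are bulk libraries, in which fewer cells of a type and less RNA per cell cannot be told apart. Reads from mouse tissue that align to human genes were not separated here, and whether they were removed earlier is not given. PC3 markers (6 of 6 listed) summed to 1935 to 2695 CPM in PBS, 3454 to 3974 CPM in P-DXd-titled and 3603 to 4021 CPM in T-DXd-titled libraries, and KLK2 and KLK3, which PC3 lacks, were not among the genes listed in both tables. Macrophage markers (8 of 14) summed to 6.67 to 7.30, 19.1 to 28.1 and 29.7 to 40.0 CPM, and CD163, MRC1 and C1QA were not among those listed in both. The neutrophil list (6 of 8, without MPO and ELANE) summed to 150 to 614, 1182 to 1662 and 1375 to 1664 CPM, of which S100A9 made up most (412 ± 244 CPM in PBS and 1460 ± 184 CPM in treated libraries). S100A9, S100A8 and ITGAM were called higher, whereas CSF3R and FCGR3B lay at or below 0.179 and 0.386 CPM in every library and CXCR2 was at 0.391 ± 0.422 CPM in PBS and 0.0330 ± 0.0352 CPM in treated libraries. Fibroblast markers (11 of 11) summed to 1072 to 2078, 1232 to 2136 and 2073 to 2234 CPM, and endothelial markers (7 of 9) to 5.76 to 12.3, 7.17 to 12.3 and 10.5 to 10.9 CPM. Keratinocyte markers (4 of 6) summed to 196 to 1001, 122 to 217 and 182 to 220 CPM and skeletal muscle markers (10 of 10) to 2.09 to 51.2, 77.8 to 4776 and 207 to 268 CPM. In all treated libraries 5 of 7 tested macrophage, 3 of 4 neutrophil and 10 of 10 muscle markers were called higher. So were 2 of 6 PC3, 5 of 10 fibroblast and 1 of 7 endothelial markers, against 15.2% of all genes tested. In the fibroblast list 1 marker was called lower.

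Of 4 keratinocyte markers 2 were called lower, the same direction as IL1A and IL1B, against 17.1% of all genes tested. The other 2 were not called and their means did not fall. KRT10 was at 43.9 ± 1.27 CPM in PBS and 55.6 ± 2.23 CPM in treated libraries, without overlap. IVL was at 3.01 ± 1.63 and 3.38 ± 1.28 CPM. KRT14 was at 431, 57.8 and 64.9 CPM in PBS replicates 1 to 3 and 18.5 to 49.4 CPM in treated libraries (log2 -2.43, adjusted p = 0.00336), and KRT5 at 521, 93.1 and 88.0 CPM and 44.1 to 122 CPM (-1.37, adjusted p = 0.0384). Without PBS replicate 1, KRT14 was still called lower (-0.83, adjusted p = 0.0112) and KRT5 was not called (0.01, adjusted p = 0.973). The part of these markers in the results was not tested. Each PBS library was also deeper than each treated library, at 54481702 to 125538606 total counts over the 9 libraries.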

How the data were processed

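Bulk mRNA libraries (TruSeq) were made from 9 PC3 xenografts, and groups were taken from the sample titles. Per the study's methods, adapters were removed by the authors with Cutadapt before alignment in STAR, and featureCounts gave the raw count of each gene that was deposited. Whether mouse reads were removed or strand was used is not given in the sources used here. The methods name GRCh38.p13, but only 44 of the 15771 identifiers that GENCODE v44 also lists kept their start and end there, so listed coordinates belong to a build the tables do not name. PBS counts of shared genes were the same in both tables. The number of unused columns of per-sample values was 0.

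The 10 genes, the pathway lists and the tests were chosen with earlier results of these data known. Counts were tested with edgeR 4.0.16 (TMM, filterByExpr, two-sided quasi-likelihood F test) in R 4.3.3 over all genes, on the 6 or 9 libraries compared. CPM were computed on TMM-adjusted library sizes and given as mean ± SD, and CPM per kilobase used the union of GENCODE v44 exons. Named genes were all 10 members, the 2 largest called rises and 2 largest called falls of each list, receptor chains of the members, and for each called member the 3 genes with the nearest profile. Alternatives were DESeq2 1.42.0, RLE size factors, no filter, no fold minimum, a minimum of 10 counts in every library, all 9 libraries in 1 fit, a replicate block and leaving out each library. The method was also run on simulated counts drawn independently for each gene and library. Such draws do not reproduce a library that departs over many genes, as PBS replicate 1 did, and the outcome is not used here. Promoters came from RefSeq, and 8 of the 10 genes matched, with IL18 and LIF unmatched. Counts differed between replicates by a chi-square of 17.2 to 388 per gene, so no library was a duplicate. Nothing says that replicates were separate cultures of PC3, so p-values measure the spread between these tumors. Intervals cover that spread only.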

Additional observations from a re-analysis of the deposited data

How the results depend on the processing

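Over all alternatives, 4 to 6 of the 10 genes were called against PBS with either conjugate title, 5 to 6 in all treated tumors against PBS and 0 between the conjugates. Of 540 alternative values of single genes, 504 kept their direction and their side of the threshold, 26 reversed, 5 lost and 5 gained a call. IL1A, IL1B, IL11 and LIF kept their calls against PBS under every alternative run. The 5 lost calls were those of IL24, 4 without a library and 1 in T-DXd-titled tumors with the replicate block (-0.93, adjusted p = 0.0906). The 5 gains were IL18 without a fold minimum in the 3 comparisons with PBS, IL18 in T-DXd-titled tumors without PBS replicate 1 (0.60, adjusted p = 7.54e-06) and IL6 without T-DXd-titled replicate 1. The cause was not tested.

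Every reversal among these 10 genes was of a value that was not called. IL6 in P-DXd-titled tumors was -0.0036 with at least 10 counts in every library, -0.0089 with all 9 libraries and -0.053 with the replicate block, and ranged from -0.36 to 0.26 when a library was left out. On leaving out a library, IL1RN ranged from -0.18 to 0.13 in P-DXd-titled, -0.14 to 0.11 in T-DXd-titled and -0.15 to 0.093 in all treated tumors. IL33 ranged likewise from -0.026 to 0.35 in P-DXd-titled and -0.13 to 0.072 in all treated tumors, and IL1R1 from -0.076 to 0.40 in P-DXd-titled tumors. Between the conjugates the ranges were -0.18 to 0.13 for IL1RN and -0.29 to 0.15 for IL24.

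The replicate block used the leading digit of the animal code, whose meaning the records do not give. With the block, 5 genes were called in P-DXd-titled, 4 in T-DXd-titled and 5 in all treated tumors, and 0 between conjugates. IL33 in all treated tumors became -0.021, and between the conjugates IL1RN became 0.086 and IL11 -0.056. The list of other ligands held 4 calls, and 2 without PBS replicate 1, a setting added after the data were seen, against 32.2% and 27.6% of all genes. In further values added then, KRT5 lost its call without P-DXd-titled replicate 2 (-1.22, adjusted p = 0.0640) and was 0.011 without PBS replicate 1. With 3 libraries a group, the intervals above are wide for IL6, IL1R1 and IL33, and depth was not equal between groups.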
